A study of Mus musculus with 13 samples.

Results

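The 10 transcripts described here encode chaperones of the cytosol that are induced by heat and protein damage, together with close partners: the HSP70 proteins Hspa8, Hspa1a and Hspa1b, the HSP110 protein Hsph1, the HSP90 protein Hsp90aa1, the J-domain proteins Dnajb1 and Dnajb2, the small heat shock proteins Hspb1 and Hspb8, and the co-chaperone Bag3. They were taken by symbol from GENCODE mouse gene names, and each symbol matched 1 of the 48709 gene rows. All 10 were among the 17403 genes that passed the filter on low counts. RNA-seq had been made from motoneurons cut by laser from lumbar cord, frozen inside its vertebrae, of mice of the SOD1-G93A genotype at the age of 65 days, with 500 motoneurons pooled per mouse. These mice carry a human SOD1 transgene with a mutation that causes amyotrophic lateral sclerosis. The AAV-miR SOD1 group (n = 4) had received, into the cerebral ventricles soon after birth, an adeno-associated viral vector for an artificial microRNA against human SOD1, active in astrocytes. The AAV-miR ctrl group (n = 5) had received the control vector AAV-miR ctrl, and littermates without any injection made up the non-injected group (n = 4). All 3 groups carry the transgene, so no group shows motoneurons without it, and the vector of the first group is directed to astrocytes and not to the cells that were captured.

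HSP70 proteins bind unfolded stretches of other proteins and release them in cycles driven by ATP. J-domain proteins deliver clients and start the ATP step, HSP110 proteins such as Hsph1 exchange the nucleotide, and HSP90 takes over clients at a later stage of folding. Small heat shock proteins hold unfolded proteins without using ATP, and Bag3 links HSP70 to Hspb8 for the removal of damaged proteins by autophagy. The inducible members are switched on by the transcription factor HSF1, which binds inverted repeats of the unit nGAAn upstream of their genes. Hspb8 and Bag3 are also abundant in skeletal muscle. Misfolded mutant SOD1 is a known client of this network, and motoneurons are known for a high threshold of the heat shock response.

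Depth ran from 13.9 to 37.4 megacounts in gene rows per library, and the 4 deepest libraries were the controls numbered 5 and 6. Levels are given as CPM, the counts of a gene per megacount of its library after scaling by the trimmed mean of M values (TMM), and 3 counts corresponded to 0.0749 to 0.225 CPM. In replicate 3 of the AAV-miR ctrl group and of the non-injected group, the column header named another group than the label, and the labels were followed. All 6 motoneuron markers (Chat, Slc5a7, Slc18a3, Isl1, Mnx1, Prph) were detected in every library, and their summed level was 523 to 1025 CPM in the AAV-miR SOD1 group against 732 to 2319 CPM in the 9 control libraries. Markers of some other tissues had higher sums than these. Summed levels of 5 skeletal muscle markers ran from 5984 to 95439 CPM, of 6 neutrophil markers from 9208 to 74230 CPM and of 6 erythroid markers from 3511 to 46575 CPM. No library of the 13 lacked any of the markers searched. A lower level in such bulk RNA cannot tell fewer cells of a type from less RNA per cell. With 1 pool per mouse, p-values measure the spread between these mice. The targeted human transcript was not analysed here.

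The deposited tables use Ensembl identifiers, and positions below are those of GENCODE on GRCm38, the build named in the submitters' processing notes. Hspa1a (ENSMUSG00000091971, chr17:34969190-34972156) and Hspa1b (ENSMUSG00000090877, chr17:34956436-34959238) are single-exon neighbours on the minus strand of chromosome 17. Of all stretches of 50 bases in their transcripts, 66.3% of those of Hspa1a and 62.3% of those of Hspa1b occur in a transcript of another gene. Such shared stretches also made up 50.1% of Hspb1 (ENSMUSG00000004951, chr5:135887919-135889563), 47.5% of Hsp90aa1 (ENSMUSG00000021270, chr12:110690605-110702728) and 39.4% of Hspa8 (ENSMUSG00000015656, chr9:40800984-40810087). The tables set reads with several alignments aside, at 42.3% to 56.8% of all records per library, so these 5 levels can be underestimates. Hspb8 (ENSMUSG00000041548, chr5:116408491-116422864), Bag3 (ENSMUSG00000030847, chr7:128523616-128546981), Hsph1 (ENSMUSG00000029657, chr5:149614287-149636376) and Dnajb2 (ENSMUSG00000026203, chr1:75236406-75245692) had none, and Dnajb1 (ENSMUSG00000005483, chr8:83608193-83612653) had 0.410%. Hspa1a also overlaps Gm20481 on the other strand over 19.01% of its exon, and strand use in the counting is not given in the sources used here.

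Promoters are shown for the members whose upstream sequence holds a pair of facing HSF1 units. The RefSeq table (GRCm38.p6) had entries for 8 of the 10 genes, and Hspa8 and Hsp90aa1 were not among them. The 250 bases before each start were searched for GAANNTTC and TTCNNGAA, which read the same on both strands. The first occurred in 7.73% and the second in 8.11% of the 27025 genes in the table, and either in 14.55%. Of the 8 members with an entry, 4 held one. Hspb1 held 2 copies of GAANNTTC, which begin 117 and 97 bases before the start. Hspa1a and Hspa1b held 1 copy each at the same distance of 104 bases, and Hsph1 held TTCNNGAA at 33 and 54 bases before its 2 starts. A run of 3 alternating units was found in 0.51% of all genes and in none of these 8. In the lines below, written 5′ to 3′ on the strand of the gene, capitals mark the pair.
Hspb1, plus strand, chr5:135887787-135887846: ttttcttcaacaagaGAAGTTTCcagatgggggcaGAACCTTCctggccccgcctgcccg
Hspa1a, minus strand, chr17:34972216-34972275: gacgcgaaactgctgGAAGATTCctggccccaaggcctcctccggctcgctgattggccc
Hspa1b, minus strand, chr17:34959298-34959357: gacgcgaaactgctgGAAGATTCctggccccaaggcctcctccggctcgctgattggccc
Hsph1, minus strand, chr5:149636351-149636380: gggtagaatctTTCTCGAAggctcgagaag
The Hspa1a and Hspa1b stretches are identical, and their whole 250 bases differ at 3 positions (98.8% identical), C44T, T47C and T249G, counted from the 5′ end of the Hspa1a window. Of the 30 bases shown for Hsph1, 26 lie in a GENCODE exon. A match is a description of the letters and shows no binding.

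Per kilobase of exon, the median level over the 13 libraries was 169 CPM for Hspb8, 108 for Hsp90aa1, 95.6 for Hspb1 and 87.8 for Hspa8. The next were Bag3 at 60.9, Dnajb1 at 29.2, Dnajb2 at 26.5 and Hsph1 at 21.4 CPM per kilobase. The stress-inducible Hspa1b and Hspa1a came last, at 1.73 and 1.57 CPM per kilobase. Neighbours in this order differed by more than the SD of their log2 ratio at 3 steps. Hspa8 exceeded Bag3 in 13 of 13 libraries, Bag3 exceeded Dnajb1 in 12 and Hsph1 exceeded Hspa1b in 13. The other neighbours did not differ beyond this spread. Exon lengths were not corrected for the shared stretches given above. The levels of Hsp90aa1, Hspb1, Hspa8, Hspa1a and Hspa1b can be underestimates, so their places in this order can be too low.

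Setting AAV-miR SOD1 beside AAV-miR ctrl asks what the microRNA changes beyond injection and vector, and setting it beside non-injected littermates adds injection and vector. In both, 9 of the 10 members had a fitted level below the control group. The exception was Dnajb2 against AAV-miR ctrl (log2 fold change of 0.05 ± 0.15, SE) and Dnajb1 against non-injected (0.05 ± 0.21, SE). The share of all genes below the control group was not counted. The median log2 fold change of the 10 was -0.70 against AAV-miR ctrl and -0.67 against non-injected, where all tested genes had medians of -0.04 and -0.09. HSP70, HSP110, HSP90, small heat shock proteins and Bag3 had fitted differences of -62.1% to -29.2% from the control level, while the J-domain genes Dnajb1 and Dnajb2 stood near 0. No member passed a Benjamini-Hochberg adjusted p of 0.05 in edgeR's quasi-likelihood test, and neither did any of the 17403 genes (0% in each of the 4 comparisons run). At an unadjusted p under 0.05 in the lower direction, 5 members were counted against AAV-miR ctrl, beside 8.54% of all genes. Against non-injected there were 6, beside 11.5%, and against the mean of both control groups 6, beside 12.1%. No member was counted in the higher direction, beside 5.99% of all genes against AAV-miR ctrl, 9.36% against non-injected and 10.2% against both. The 2 single comparisons share the AAV-miR SOD1 libraries, so they are not separate evidence.

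**Figure D1:**
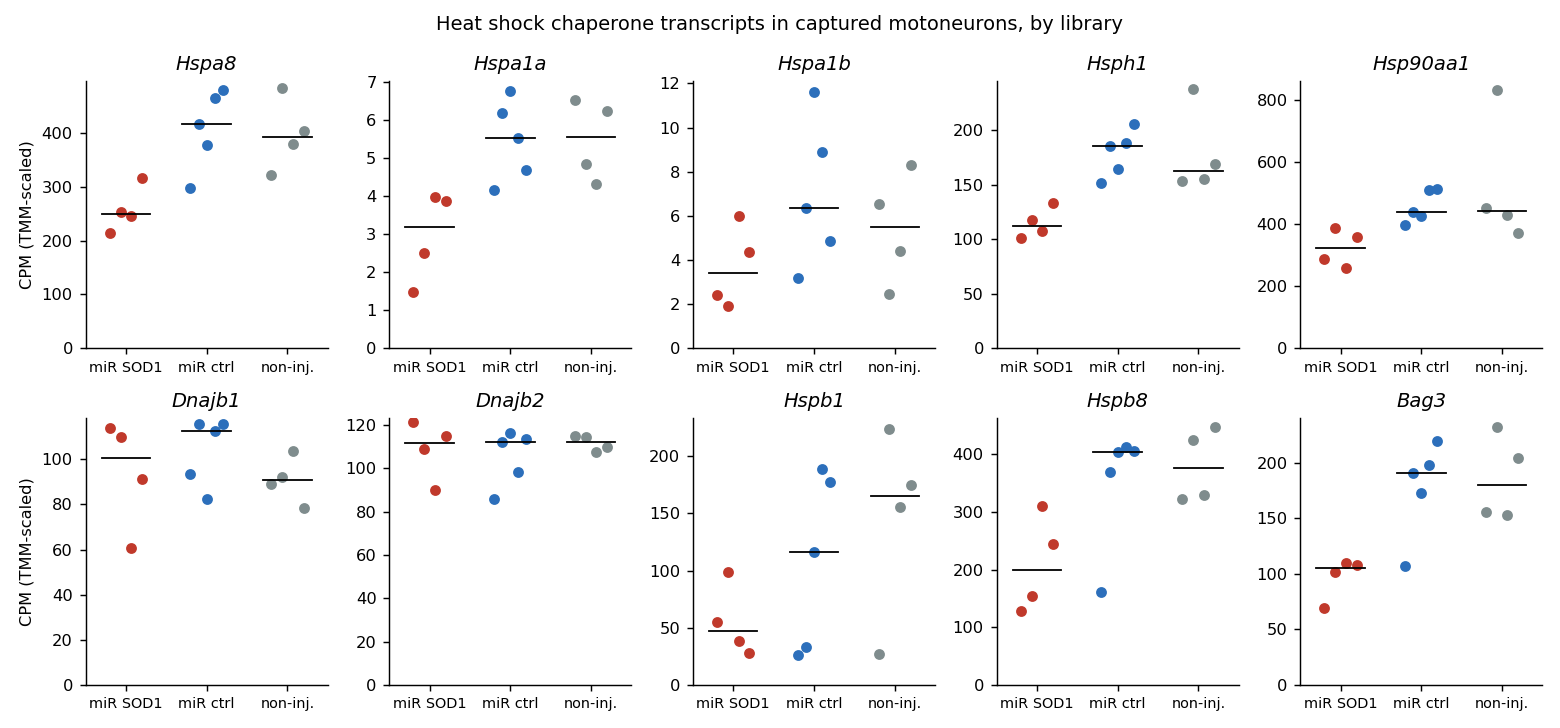
Level of each of the 10 chaperone transcripts in CPM (TMM-scaled, linear axis from 0) in every library, with 1 point per mouse in replicate order and a line at the group median. The 4 AAV-miR SOD1 points of Hspa1a and Hsph1 lie below all 9 control points, Hspb1 splits into a high and a low set within groups, and Dnajb1 and Dnajb2 overlap throughout.

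Hspa8, the constitutive HSP70 of all cells, stood at 214, 252, 246 and 317 CPM in AAV-miR SOD1 replicates 1 to 4. It stood at 297, 417, 378, 465 and 479.6 CPM in AAV-miR ctrl replicates 1, 3, 4, 5 and 6, and at 322, 483, 379.5 and 404 CPM in non-injected replicates 2, 3, 5 and 6, the order used for every gene below. All AAV-miR SOD1 values lay below the non-injected ones, and replicate 4 overlapped AAV-miR ctrl replicate 1. The share of all genes separated in this way from a single control group was not counted, here or for Hsp90aa1 below. Relative to AAV-miR ctrl the log2 fold change of Hspa8 was -0.66 ± 0.20 (SE), at an edgeR adjusted p of 0.256. Against non-injected it was -0.63 ± 0.21 (SE), with an adjusted p of 0.147 by edgeR.

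Hspa1a, an HSP70 made on stress, was rare, at 1.47, 2.50, 3.98 and 3.86 CPM in the AAV-miR SOD1 group. Its levels were 4.15, 6.17, 6.75, 5.52 and 4.67 CPM in the AAV-miR ctrl group and 6.50, 4.84, 4.32 and 6.23 CPM in the non-injected group. The highest treated library stayed below the lowest control, with raw counts of 33 to 84 in the treated and 85 to 210 in the control libraries. Log2 fold changes were -0.89 ± 0.33 (SE) and -0.89 ± 0.34 (SE), with edgeR adjusted p of 0.277 and 0.172. Hspa1b, its near copy, was at 2.40, 1.92, 5.97 and 4.36 CPM in the AAV-miR SOD1 group. In controls it was at 3.18, 6.36, 11.6, 8.89 and 4.84 CPM with AAV-miR ctrl and 6.55, 2.45, 4.39 and 8.29 CPM without injection. The groups overlapped widely for Hspa1b. It differed by -0.93 ± 0.47 (log2, SE) from AAV-miR ctrl and by -0.57 ± 0.49 (SE) from non-injected (edgeR adjusted p of 0.378 and 0.539). The second value was -0.29 without non-injected replicate 6 and -0.30 ± 0.63 (SE) among libraries numbered 1 to 4. With the counts of the pair summed, the values were -0.91 ± 0.36 (SE) and -0.72 ± 0.37 (SE), at edgeR adjusted p of 0.291 and 0.284.

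Hsph1, the HSP110 partner of HSP70, was at 101, 117, 108 and 133 CPM in the AAV-miR SOD1 group. The AAV-miR ctrl libraries had 152, 185, 164, 188 and 205 CPM and the non-injected libraries 154, 238, 155 and 169 CPM. No treated library reached a control one. Its log2 fold change was -0.64 ± 0.18 (SE) relative to AAV-miR ctrl and -0.64 ± 0.19 (SE) against non-injected, with edgeR adjusted p of 0.256 and 0.140. Hsph1 and Hspa1a were the 2 members with every treated library below every control library, a pattern met by 1.23% of all genes tested.

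Hsp90aa1, the inducible HSP90 isoform, had 286, 388, 259.7 and 359 CPM in the AAV-miR SOD1 group and 398, 437, 426, 508 and 513 CPM in the AAV-miR ctrl group, without overlap. In the non-injected group it had 453, 832, 428 and 370.3 CPM, where replicate 3 was the highest of all libraries and replicate 6 fell within the treated range. The log2 fold change was -0.50 ± 0.25 (SE) relative to AAV-miR ctrl (edgeR adjusted p of 0.371) and -0.69 ± 0.26 (SE) against non-injected (edgeR adjusted p of 0.165). Non-injected replicate 3 is one of the libraries with a disagreeing header. Against non-injected, the value was -0.37 without this library and -0.30 ± 0.22 (SE) without both such libraries, a move of over 1.5 times.

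Dnajb1, the main inducible J-domain partner of HSP70, was at 114, 109.7, 60.5 and 91.4 CPM in the AAV-miR SOD1 group. It was at 93.6, 116, 82.3, 112 and 116 CPM with AAV-miR ctrl and 89.3, 92.2, 104 and 78.4 CPM in non-injected mice. Treated replicate 3 was the lowest library and replicates 1 and 2 exceeded all non-injected libraries. It differed by -0.15 ± 0.20 (log2, SE) from AAV-miR ctrl and by 0.05 ± 0.21 (SE) from non-injected (edgeR adjusted p of 0.774 and 0.923). Dnajb2, a J-domain protein enriched in neurons, had 122, 109, 90.1 and 115 CPM, 85.8, 112, 116, 98.2 and 114 CPM and 115, 115, 108 and 109.7 CPM in the same order of groups. It was the steadiest member, with a range of 1.42-fold over 13 libraries. Log2 fold changes were 0.05 ± 0.15 (SE) and -0.04 ± 0.16 (SE), with edgeR adjusted p of 0.915 and 0.921.

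Hspb8, the small heat shock protein that binds Bag3, was at 128, 154, 309.5 and 245 CPM in the AAV-miR SOD1 group. In AAV-miR ctrl it was at 162, 368, 404, 412 and 405 CPM and in non-injected mice at 322, 424, 329 and 447 CPM. AAV-miR ctrl replicate 1 fell among the treated libraries, and the other 8 controls exceeded all of them. The share of all genes separated from all controls but 1 was not counted, here or for Bag3 below. For Hspb8 the log2 fold change was -0.74 ± 0.31 (SE) relative to AAV-miR ctrl (edgeR adjusted p of 0.310) and -0.86 ± 0.33 (SE) against non-injected (edgeR adjusted p of 0.166). Bag3, the co-chaperone that joins Hspb8 to HSP70, was at 69.0, 101, 109 and 108 CPM in the AAV-miR SOD1 group. It was at 107, 190.4, 172, 198 and 219.8 CPM in AAV-miR ctrl and 156, 232, 153 and 204 CPM in non-injected mice. Again AAV-miR ctrl replicate 1 was the single control within the treated range. Bag3 had the smallest p of the 10 genes, with log2 fold changes of -0.87 ± 0.23 (SE) and -0.94 ± 0.24 (SE) and edgeR adjusted p of 0.256 and 0.140.

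Hspb1, a small heat shock protein abundant in motoneurons, was at 55.2, 98.5, 38.7 and 27.8 CPM in the AAV-miR SOD1 group. Its levels were 26.2, 33.4, 116, 189 and 178 CPM with AAV-miR ctrl and 26.7, 224, 156 and 175 CPM without injection. Values split within groups, with 6 libraries at or below 55.2 CPM, 7 at or above 98.5 CPM and a 1.79-fold gap between them. The low set held 3 of 4 treated, 2 of 5 AAV-miR ctrl and 1 of 4 non-injected libraries. Its log2 fold change was the widest in error, -0.98 ± 0.65 (SE) against AAV-miR ctrl and -1.40 ± 0.68 (SE) against non-injected, at edgeR adjusted p of 0.503 and 0.261. Among libraries numbered 1 to 4 the first of these was -0.05 ± 0.73 (SE), and with the 2 libraries with disagreeing headers exchanged the second was -0.83 ± 0.67 (SE).

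**Figure D2:**
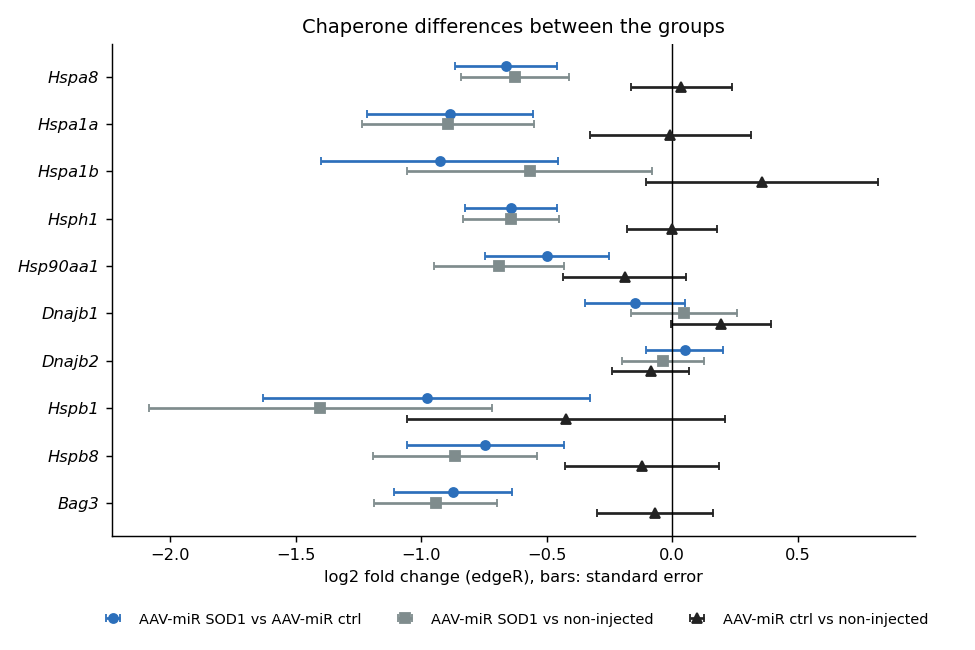
Log2 fold change of each chaperone (horizontal axis, bars are 1 SE) in 3 group comparisons from one edgeR fit. Points for AAV-miR SOD1 against either control lie left of 0 for 8 genes, Dnajb1 and Dnajb2 lie near 0, and the triangles of AAV-miR ctrl against non-injected scatter around 0.

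AAV-miR ctrl against non-injected compares injection of the control vector with no injection, without the microRNA against human SOD1. The median log2 fold change of the 10 members was -0.04, beside -0.01 over all genes. No member had an unadjusted p under 0.05, beside 2.24% of all genes that were lower and 1.38% that were higher by this rule. Hspb1 had the largest value, -0.42 ± 0.63 (SE), and Hsph1 the smallest, -0.00 ± 0.18 (SE). Bag3 was at -0.07 ± 0.23 (SE) and Hspa8 at 0.04 ± 0.20 (SE). Hspa1b stood at 0.36 ± 0.46 (SE). Single libraries moved both: Hspb1 was at -0.14 without non-injected replicate 3 and -0.76 without replicate 2, and Hspa1b at 0.10 without AAV-miR ctrl replicate 4 and 0.64 without non-injected replicate 6. Both changed sign with the 2 libraries with disagreeing headers exchanged, to 0.58 ± 0.64 (SE) and -0.05 ± 0.47 (SE). Missing the threshold does not show that the 2 control groups are alike.

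Against the mean of both control groups, log2 fold changes were -0.91 ± 0.22 (SE) for Bag3, -0.89 ± 0.30 (SE) for Hspa1a, -0.80 ± 0.29 (SE) for Hspb8 and -0.64 ± 0.19 (SE) for Hspa8. Hsph1 was at -0.64 ± 0.17 (SE), Hsp90aa1 at -0.59 ± 0.23 (SE), Hspb1 at -1.19 ± 0.61 (SE) and Hspa1b at -0.75 ± 0.43 (SE). The edgeR adjusted p of these 8 ran from 0.0960 for Bag3 and 0.0960 for Hsph1 to 0.328 for Hspa1b. Dnajb1 and Dnajb2 stood at -0.05 ± 0.18 (SE) and 0.01 ± 0.14 (SE), at edgeR adjusted p of 0.904 and 0.987. The call depended on the tool and on 1 library. DESeq2 gave an adjusted p under 0.05 to Bag3 (0.00652), Hsph1 (0.0110), Hspa8 (0.0166) and Hspa1a (0.0380), among 1480 genes. Limma-voom with quality weights gave it to Bag3 (0.0313), Hsph1 (0.0325), Hspa8 (0.0372) and Hspb8 (0.0413), among 1461 genes. Without AAV-miR ctrl replicate 1, edgeR's test gave it to the same 4 genes as voom, at adjusted p of 0.0203, 0.0297, 0.0307 and 0.0353, among 1694 genes. In the 2 single comparisons DESeq2 called Bag3 against AAV-miR ctrl (adjusted p of 0.0469), and Bag3 (0.0222) and Hsph1 (0.0378) against non-injected, among 173 and 996 genes. At an unadjusted p under 0.05, edgeR's test counted 3870 genes against both control groups. It counted 2529 against AAV-miR ctrl, 3635 against non-injected and 629 between the 2 control groups. Limma-voom called 0 genes in the last 3.

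Since libraries numbered 5 and 6 are deep and all controls, the fit was repeated on those numbered 1 to 4 (4 treated, 3 AAV-miR ctrl and 2 non-injected). Log2 fold changes against both control groups were then -0.83 ± 0.24 (SE) for Bag3, -0.64 ± 0.19 (SE) for Hsph1, -0.56 ± 0.21 (SE) for Hspa8 and -0.94 ± 0.37 (SE) for Hspa1a. Their edgeR unadjusted p were 0.00593, 0.00784, 0.0260 and 0.0285, and adjusted p were at least 0.322. Hsp90aa1 was at -0.67 ± 0.24 (SE, edgeR unadjusted p of 0.0201). Hspb8 was at -0.70 ± 0.33 (SE) and no longer had an edgeR unadjusted p under 0.05 (0.0631). At an unadjusted p under 0.05 in the lower direction, 5 members were then counted against both control groups, beside 6.15% of all genes in that fit. There were 3 against AAV-miR ctrl, beside 2.43%, and 4 against non-injected, beside 7.64%. Without AAV-miR SOD1 replicate 1 there were 3 against AAV-miR ctrl, beside 4.39% of all genes. Without the 2 libraries with disagreeing headers there were 3 against non-injected, beside 5.23%. Without the 2 libraries with disagreeing headers, log2 fold changes against both control groups were -0.77 ± 0.22 (SE) for Bag3, -0.49 ± 0.15 (SE) for Hsph1, -0.52 ± 0.19 (SE) for Hspa8, -0.83 ± 0.33 (SE) for Hspa1a, -0.70 ± 0.31 (SE) for Hspb8 and -0.38 ± 0.18 (SE) for Hsp90aa1. Among libraries numbered 1 to 4, Hspb1 against both controls moved from -1.19 ± 0.61 to -0.60 ± 0.66 (SE). Among libraries numbered 5 and 6 no value can be had, since none is treated.

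Members differed in how closely they varied together over the 13 libraries. Pearson's r of log2 CPM was 0.96 between Hspa8 and Hsph1, 0.95 between Hspa8 and Bag3, 0.93 between Hsph1 and Bag3 and 0.92 between Hspb8 and Bag3. The 28 pairs without a J-domain gene had a median r of 0.70, and the 17 pairs with Dnajb1 or Dnajb2 had 0.14. Of 45 pairs, 8 exceeded 0.8, and the share of other gene pairs that did so was not counted. These libraries share groups, depth and composition, so the values describe them only. Outside the list, the genes most like the mean standardised level of the 10 members over 13 libraries were Pja2 (r = 0.97), 2310057M21Rik (0.97), Atl1 (0.96), Serpini1 (0.96) and Asb13 (0.96). Pja2 encodes a ubiquitin ligase, Atl1 the membrane-shaping GTPase atlastin and Serpini1 the neuronal protease inhibitor neuroserpin. Pja2 ran from 175 to 230.2 CPM in the AAV-miR SOD1 group and from 227 to 426 CPM in the controls.

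**Figure D3:**
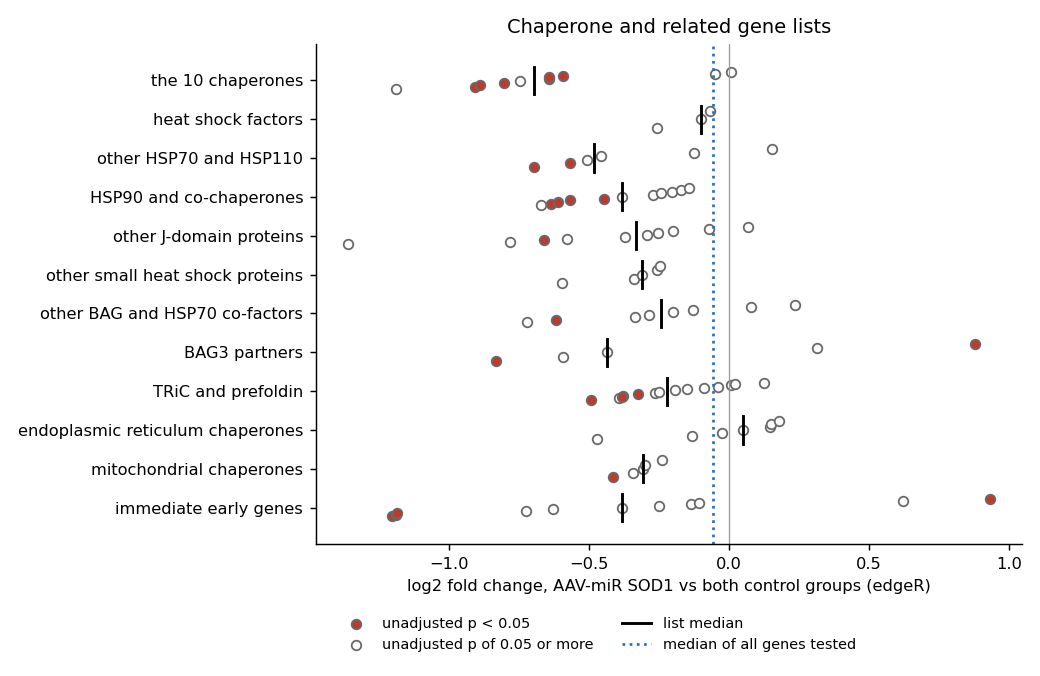
Log2 fold change of AAV-miR SOD1 against both control groups for the 10 chaperones and for 11 related gene lists, with 1 circle per gene, filled where the unadjusted p is under 0.05. Black bars mark list medians, from -0.70 for the 10 chaperones to 0.05 for the endoplasmic reticulum list, beside a median of -0.06 over all genes.

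Related genes of the network were counted by list in the comparison with both control groups, where 12.1% of all genes were lower at an unadjusted p under 0.05 and none passed adjustment by edgeR. Of 74 genes in 10 chaperone lists, 13 were lower and 1 higher by this rule, beside 10.2% of all genes higher. Of the 74, 61 had a value below 0, and the median was -0.27. The median over all genes was also below 0, at -0.06, and the share of all genes below 0 was not counted. Among 11 HSP90 genes and co-chaperones, 4 were lower and all 11 lay below 0. These were Stip1, which links HSP70 to HSP90 (-0.64 ± 0.22, SE), Chordc1 (-0.45 ± 0.16, SE), the HSP90 activator Ahsa1 (-0.57 ± 0.21, SE) and the constitutive HSP90 Hsp90ab1 (-0.61 ± 0.23, SE). Of 6 other HSP70 and HSP110 genes, 2 were lower, Hspa4l (-0.57 ± 0.16, SE) and Hspa12a (-0.70 ± 0.19, SE). Of 10 other J-domain genes, 1 was lower, the HSP70 partner Dnaja1 (-0.66 ± 0.19, SE), at 79.0 to 106 CPM in treated and 112 to 203 CPM in control libraries. The list of 3 genes with the heat shock factors Hsf1 and Hsf2 and the HSF1 binder Hsbp1 gave none. Hsbp1 had its smallest p, at -0.26 ± 0.17 (SE, edgeR adjusted p of 0.410).

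Among 8 other BAG and HSP70 co-factors, 1 was lower, the nucleotide exchange factor Hspbp1 (-0.62 ± 0.23, SE). Partners of Bag3 went in both directions. The autophagy receptor Sqstm1 was lower (-0.83 ± 0.26, SE), at 459.7 to 672 CPM against 603 to 1409 CPM in controls, and the actin crosslinker filamin A, Flna, was higher (0.88 ± 0.35, SE), at 278 to 563 against 108 to 469.8 CPM. Of the 14 subunits of the TRiC chaperonin and prefoldin, 3 were lower, Pfdn4 (-0.49 ± 0.19, SE), Pfdn2 (-0.38 ± 0.17, SE) and Cct3 (-0.33 ± 0.15, SE). One of 5 mitochondrial chaperones was lower, Hspd1 (-0.41 ± 0.16, SE). None of 7 endoplasmic reticulum chaperones was counted, with a median of 0.05 and the smallest p for Dnajb9 (-0.47 ± 0.23, SE, edgeR adjusted p of 0.251). None of 5 other small heat shock genes was counted either, and Hspb7, a muscle protein, had the smallest p (-0.60 ± 0.65, SE, edgeR adjusted p of 0.635). Of 11 immediate early genes, Jun (-1.20 ± 0.39, SE), Nr4a1 (-1.19 ± 0.45, SE) and Atf3 (-1.19 ± 0.49, SE) were lower and Btg2 (0.93 ± 0.26, SE) was higher. The edgeR adjusted p of the genes named from these lists were at least 0.0962.

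**Figure D4:**
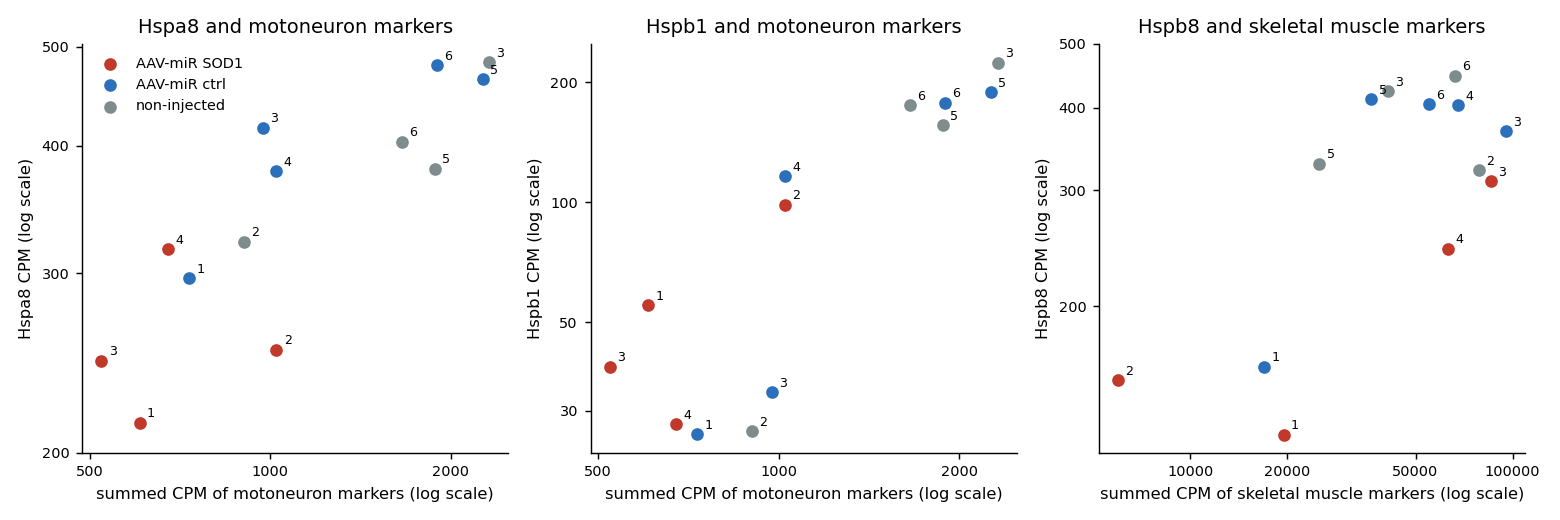
Level of Hspa8, Hspb1 and Hspb8 (vertical, CPM, log scale) against summed CPM of motoneuron or skeletal muscle markers (horizontal, log scale), 1 point per library with its replicate number. The 6 libraries low in Hspb1 are the 6 with the lowest motoneuron sums, and the 3 lowest in Hspb8 are the 3 with the lowest muscle sums, with no such order among the other 10.

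Markers of several cell types moved with the groups in which the chaperones were lower. All 6 motoneuron markers were lower at an unadjusted p under 0.05 against both control groups, with a median log2 fold change of -1.13. Of all genes, 10.2% were higher by this rule. All 6 erythroid markers were higher, at summed levels of 20786 to 46575 CPM in treated and 3511 to 27907 CPM in control libraries, and 4 of 6 neutrophil markers were higher, at 27546 to 74230 against 9208 to 64506 CPM. Of 6 microglial markers 3 were higher (578 to 819 against 209 to 975 CPM), and of 4 B lineage markers 2 were higher (192 to 444 against 46.0 to 316 CPM). Astrocyte markers gave 1 of 6 lower (434 to 563 against 516 to 988 CPM), and oligodendrocyte (0 of 6, 1193 to 2737 against 1137 to 4532 CPM) and endothelial markers (0 of 5, 92.0 to 144 against 63.1 to 152 CPM) gave none. Skeletal muscle markers gave 0 of 5, at 5984 to 85572 against 16977 to 95439 CPM.

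Low levels of Hspb1 and Hspb8 were set beside the marker sums. The 6 libraries low in Hspb1 had motoneuron sums of 523 to 974 CPM, and the 7 high in Hspb1 had 1024 to 2319 CPM. The 3 libraries lowest in Hspb8 were AAV-miR SOD1 replicates 1 and 2 and AAV-miR ctrl replicate 1, which also had the 3 lowest muscle sums, 19508, 5984 and 16977 CPM. The same 3 libraries had the 3 highest microglial sums, 819, 797 and 975 CPM. Among the other 10 libraries Hspb8 did not follow the muscle sum in order: AAV-miR ctrl replicate 5 had 36450 CPM of muscle markers and Hspb8 at 412 CPM, and AAV-miR ctrl replicate 3 had 95439 and 368 CPM. Treated replicates 3 and 4, with muscle sums of 85572 and 63210 CPM, had Hspb8 at 309.5 and 245 CPM, below the 8 other controls. AAV-miR ctrl replicate 1, the control nearest to the treated libraries in Hspa8, Hspb8 and Bag3, had a motoneuron sum of 732 CPM, the lowest of the controls, and the highest neutrophil (64506 CPM) and erythroid (27907 CPM) sums of the controls. The part of these cell types in the chaperone levels was not tested.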

How the data were processed

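The authors deposited 1 table of raw counts per library, with Ensembl genes as rows, and the submitters' processing notes name cutadapt 1.8, STAR 2.5.2b, HTSeq 0.6.1 and the build GRCm38. The annotation release and the strand setting are not given in the sources used here. Summary rows (reads outside genes, ambiguous, unaligned or with several alignments; 47.0% to 61.6% of records) were left out of library sizes. Groups and replicate numbers came from the titles. In R 4.3.3, genes were kept by filterByExpr (edgeR 4.0.16, minimum count 10), scaled by TMM and tested with edgeR's quasi-likelihood test over all 13 libraries, with Benjamini-Hochberg adjustment over 17403 genes. Standard errors were derived from log2 fold change and F statistic. Log2 CPM used a prior count of 2. The fit was tried on simulated counts with planted changes larger than any fitted for the members. That trial does not show how well changes of the members' size are found. Symbols, exon lengths and shared stretches came from GENCODE M21 (GRCm38), promoters from RefSeq (GRCm38.p6). All 10 members were named, and from each related list up to 4 genes with an unadjusted p under 0.05 against both control groups, or else the one with the smallest p. Members and lists were chosen with earlier results of these data known. Alternatives were other scalings and filters, DESeq2 1.42.0, limma-voom (limma 3.58.1), fewer libraries, the header exchange and a replicate block.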

Additional observations from a re-analysis of the deposited data

Results flagged for a closer look

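In 30 sets of values (10 genes in 3 groups), 3 single libraries stood apart from the rest of their group by Dixon's test, where chance gives about 1 in 20, or 1.5 of 30. Hspb1 in non-injected replicate 2 was at 26.7 CPM, and the other 3 non-injected libraries were at 156 to 224 CPM. Hspb8 in AAV-miR ctrl replicate 1 was at 162 CPM, and the other 4 of that group were at 368 to 412 CPM. Bag3 in AAV-miR SOD1 replicate 1 was at 69.0 CPM, against 101 to 109 CPM in the other 3. Without that library the Bag3 log2 fold change against both control groups was -0.78, beside -0.91 with it.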

How the results depend on the processing

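In the comparison of AAV-miR SOD1 with both control groups, 8 members stayed below 0 in all 25 alternatives, and Hspa1a, Hspa8, Hsph1 and Bag3 kept an unadjusted p under 0.05 in all 25, Hspb8 in 23 and Hsp90aa1 in 21. Dnajb1 and Dnajb2 were below 0 in 17 and 7. Of all genes, 4.67% to 14.1% were lower at an unadjusted p under 0.05 in each of these fits. The share of all genes that kept this, or stayed below 0, in all 25 was not counted. These fits share most of their libraries, so they are not separate evidence. By DESeq2, the number of genes with an adjusted p under 0.05 was 1480 against both control groups and 173 against AAV-miR ctrl. It was 996 against non-injected and 2 between the control groups. Against both control groups the number was 1461 by limma-voom, 1 without a filter and 582 at a threshold of 0.1. In that comparison it ran from 0 to 1694 when each library was left out in turn, the highest without AAV-miR ctrl replicate 1. Members at an unadjusted p under 0.05, beside the share of all genes lower by this rule in the same fit, were 3 against AAV-miR ctrl with libraries numbered 1 to 4 (2.43%), 3 to 6 with each library left out (4.39% to 11.5%), and 3 against non-injected without both libraries with disagreeing headers (5.23%). The cause of these changes was not tested. Deviations from the group mean correlated at r of -0.19 to 0.24 between same-numbered libraries and -0.38 to 0.34 between differently numbered ones. These ranges do not decide whether the numbers pair the samples. At an unadjusted p under 0.05, the fit with the replicate block counted 5 members against both control groups, beside 4.67% of all genes lower. It counted 5 relative to AAV-miR ctrl (3.41%) and 4 relative to non-injected (3.32%). Between the control groups it counted 0, beside 1.81% of all genes lower and 0.862% higher. It called 0 genes at an adjusted p under 0.05. With the block Hspb1 was at -0.32 ± 0.85, -0.11 ± 0.91 and -0.53 ± 0.96 (SE) in the first 3. Against non-injected, Hsph1 was at -0.40 ± 0.18 (SE) without both libraries with disagreeing headers.

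Log2 fold changes that changed sign in an alternative were between -0.42 and 0.36 in the fit reported. In AAV-miR SOD1 against non-injected, Dnajb2 was at 0.0078 (RLE), 0.013 (upper quartile), 0.028 (total counts), 0.0067 (minimum count 50), 0.0080 (DESeq2), 0.033 (the compared groups alone), 0.050 (without both libraries). Dnajb1 was at -0.044 (header exchange). In AAV-miR ctrl against non-injected, Hspa1a was at 0.0077 (RLE), 0.032 (upper quartile), 0.0038 (total counts), 0.013 (minimum count 50), 0.0058 (DESeq2), 0.059 (voom), 0.059 (replicate block), 0.0072 (numbers 1 to 4), 0.19 (summed pair). Hsph1 was at 0.015 (RLE), 0.034 (upper quartile), 0.0036 (total counts), 0.018 (minimum count 50), 0.016 (DESeq2), 0.024 (voom), 0.0023 (the compared groups alone), 0.033 (replicate block), 0.17 (without both libraries), 0.19 (header exchange). Bag3 was at 0.042 (replicate block), 0.044 (without both libraries), 0.081 (header exchange). Hspb1 was at 0.12 (without both libraries), 0.58 (header exchange). Hsp90aa1 was at 0.16 (without both libraries), 0.34 (header exchange). Hspa1b was at -0.048 (header exchange). Hspa8 was at -0.14 (numbers 1 to 4). In AAV-miR SOD1 against both control groups, Dnajb1 was at 0.023 (total counts), 0.041 (without both libraries), 0.019 (numbers 1 to 4). Dnajb2 was at -0.0059 (voom), -0.017 (replicate block). With each library left out, the range of log2 fold changes that crossed 0 was, in AAV-miR SOD1 against AAV-miR ctrl, Dnajb1 -0.26 to 0.073, Dnajb2 -0.014 to 0.19; in AAV-miR SOD1 against non-injected, Dnajb1 -0.061 to 0.28, Dnajb2 -0.095 to 0.11; in AAV-miR ctrl against non-injected, Hspa1a -0.093 to 0.10, Hspa8 -0.038 to 0.14, Hspb8 -0.19 to 0.062, Hsph1 -0.055 to 0.17, Hsp90aa1 -0.32 to 0.13, Bag3 -0.14 to 0.068; against both control groups, Dnajb1 -0.16 to 0.18, Dnajb2 -0.052 to 0.15. Hspa1a and Hspa1b had the lowest counts of the members, 33 to 338 per library.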

Other observations

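The split of Hspb1 was also set against 2 genes chosen after its values were seen, the Y-linked Ddx3y and the X-inactivation transcript Xist, since the labels give no sex. Ddx3y exceeded 10 CPM in 6 of the 7 libraries high in Hspb1 and in 1 of the 6 low ones. The exceptions were non-injected replicate 6, with Hspb1 at 175 CPM and Ddx3y at 0.0596 CPM, and AAV-miR SOD1 replicate 4, with Hspb1 at 27.8 CPM and Ddx3y at 55.8 CPM. AAV-miR ctrl replicate 4 had both Ddx3y (19.0 CPM) and Xist (47.5 CPM). The part of sex in the Hspb1 levels was not tested.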
